A study of Homo sapiens with 57 samples.

Results

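BBC3, BAD and BCL2L1 were the members of the BCL2 family followed here, and they made up 3 of the 412 genes counted in every file. They were taken by name, with the Entrez identifiers 27113 for BBC3, 572 for BAD and 598 for BCL2L1. HK-2, an immortalised line of human proximal tubule cells, was seeded at 3000 cells per well and kept for 24 h with 100 μg/mL of a crude extract of Roucongrong (Cistanche), Yinyanghuo (Epimedium) or Gusuibu (Drynaria), or with 0.5% DMSO, the solvent control. Each herb had 3 wells and its own set of 16 DMSO wells, which gave 57 wells in all, 9 treated and 48 with DMSO. The labels describe wells of 1 cell line and no separate cultures, so the p-values measured the spread between wells, which may be technical. Counts came from RASL-seq, in which probe pairs annealed to an mRNA are ligated and sequenced, and CPM below is counts per 1000000 of a well's total, scaled by TMM (trimmed mean of M-values) over the 57 wells. Probe pairs differ in efficiency, so levels were compared between wells for 1 gene and not between genes.

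The BCL2 family decides whether the outer mitochondrial membrane is opened during apoptosis. BBC3, also called PUMA, and BAD are BH3-only proteins that bind and block the survival members, and BBC3 is controlled mainly by its transcription whereas BAD is held inactive by phosphorylation and by 14-3-3 proteins. BCL2L1 encodes the survival protein BCL-xL and, by alternative splicing, the shorter pro-death form BCL-xS, and which form its probes read was not given in the sources used here. In proximal tubule cells these genes are known for their part in cell loss after ischaemic or toxic injury. The counts described mRNA only and carried no information on protein or phosphorylation.

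A well held between 13581 and 75969 counts, with a median of 35239. Of 18 genes listed for renal epithelium, 3 were on the panel. VIM (115 to 1615 counts) and CDH2 (138 to 869 counts) were found in every well, but neither is specific to renal epithelium. HNF4A, a proximal tubule transcription factor, stayed between 0 and 3 counts per well. All 3 genes were on average higher in the DMSO wells of the Roucongrong set than in those of the other sets, as given below. Each herb had its own set, so herb and set cannot be told apart where herbs are compared.

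Of the 3 genes, BAD rose with Yinyanghuo and passed the adjusted test, but did not pass it without treated well 2. BCL2L1 was called lower with Roucongrong before adjustment for the number of genes tested. BBC3 fell with Roucongrong by the adjusted test, though not without well 1 or well 3, and by less than the fold criterion with all 3 wells. With Gusuibu none of the 3 was called and none passed the adjusted test, which 5.22% of genes passed. The 3 treated wells of a herb were tested against the 16 DMSO wells of that set with edgeR's quasi-likelihood test, and a call needed p below 0.05, unadjusted, together with a fold above 1.5 or below 0.67. By that rule 10.2% of 402 genes tested were called with Roucongrong, 15% of 400 with Yinyanghuo and 9.45% of 402 with Gusuibu, and 1 of 3 genes is too few to be read against these shares.

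**Figure D1:**
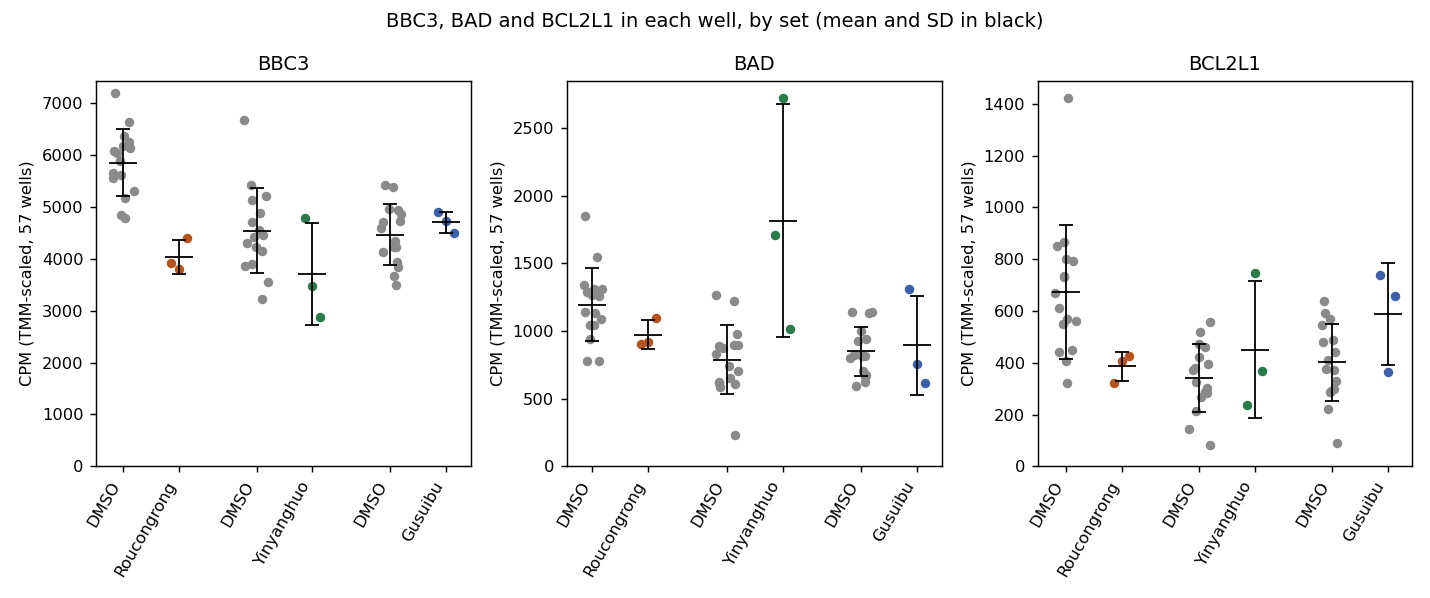
Level of BBC3, BAD and BCL2L1 in every well (CPM, linear axes from 0) for the DMSO wells of each set in grey and the 3 wells of each herb in colour, with mean and SD in black. The 3 Roucongrong wells lay below every DMSO well of their set for BBC3, and Yinyanghuo wells 1 and 2 lay above every DMSO well of theirs for BAD.

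BBC3 was the most heavily counted of the 3 genes, with 51 to 450 counts in a well. In the Roucongrong set it stood at 3915, 3801 and 4411 CPM in treated wells 1, 2 and 3, and the DMSO wells ranged from 4781 to 7206 CPM with a median of 5963. All 3 treated wells were below all 16 DMSO wells, which 1.24% of the genes tested in that set shared. The mean was 4042 ± 325 CPM (SD, n = 3) with Roucongrong and 5859 ± 646 CPM (SD, n = 16) with DMSO. The log2 fold change was -0.55 ± 0.12 (SE), a fold of 0.684, with an adjusted p of 0.00651 by edgeR's quasi-likelihood test with Benjamini-Hochberg adjustment over all genes, a threshold that 2.99% of genes passed and 0.995% passed downward. The exact permutation test over all 969 choices of 3 of the 19 wells, two-sided, gave p = 0.00206. That was the smallest value this two-sided test could give. The fold of 0.684 lay just above the 0.67 needed for a call, and the 95% interval of the fold, 0.577 to 0.809, covered that limit. Without well 1 or well 3 the edgeR adjusted p was 0.0529 or 0.0530, and without well 3 the log2 fold change of -0.58 reached the limit.

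The difference depended on which DMSO wells were used. Set against the 32 DMSO wells outside its set, the log2 fold change of BBC3 with Roucongrong was -0.19 (edgeR adjusted p = 0.549). The Roucongrong wells lay within the range of those DMSO wells, 3227 to 6669 CPM in the Yinyanghuo set and 3498 to 5429 CPM in the Gusuibu set.

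With Yinyanghuo, BBC3 stood at 4796, 3471 and 2880 CPM against 3227 to 6669 CPM in its DMSO wells (median 4434). Well 3 was below every DMSO well and well 1 was above their median, so the groups overlapped. Its log2 fold change was -0.32 with a 95% interval from -0.68 to 0.04 (edgeR adjusted p = 0.304), and it was -0.54 without well 1 and -0.14 without well 3. With Gusuibu the wells were close to one another at 4896, 4726 and 4496 CPM, all slightly above the DMSO median of 4476. A log2 fold change of 0.05 was found there, and its interval of -0.20 to 0.31 did not reach either fold limit (edgeR adjusted p = 0.846).

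BAD, whose product blocks BCL-xL when it is not phosphorylated, showed its largest difference with Yinyanghuo. It stood at 1709, 2722 and 1016 CPM in wells 1, 2 and 3, against 228 to 1267 CPM in the DMSO wells with a median of 784. Wells 1 and 2 were above every DMSO well, and well 3 was above their median but inside their range. The mean was 1816 ± 858 CPM (SD, n = 3) with the extract and 788 ± 254 CPM (SD, n = 16) with DMSO. The log2 fold change was 1.13 ± 0.30 (SE), a fold of 2.19 with a 95% interval of 1.43 to 3.34, and the edgeR adjusted p was 0.0140, a threshold that 7.5% of genes passed and 2.5% passed upward, while 7.75% of genes were called higher. The exact permutation test, two-sided over the 969 choices, gave p = 0.00826.

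The treated wells differed more in depth than in BAD counts. BAD had 36, 40 and 36 counts in totals of 21916, 13581 and 35307, and the total of well 2 was the lowest of the 57 wells. The cause of that low total was not tested. Without well 2 the log2 fold change was 0.72 and the gene was still called (p = 0.0422), but the edgeR adjusted p was 0.273. The 3 DMSO wells of the set with the lowest totals, 19690 to 22830, had BAD at 607 to 621 CPM, below the DMSO median. None of them was as shallow as treated well 2. The 3 shallowest DMSO wells of the Gusuibu set had BAD at 620, 703 and 819 CPM (DMSO median 822). Those of the Roucongrong set had 775, 1314 and 1851 CPM (DMSO median 1200). With the 32 DMSO wells from outside the Yinyanghuo set as controls the log2 fold change of BAD with Yinyanghuo was 0.76 (edgeR adjusted p = 0.0258). The part of depth in this result was not tested. Of 15 listed markers of other cell types, 4 were on the panel, the endothelial KDR and CDH5 and the leukocyte ITGB2 and ITGAM, and no fibroblast or collecting duct marker was. Their sum was 958 to 1252 CPM (median 1076) in the Yinyanghuo wells and 318 to 1446 CPM (median 604) in the DMSO wells of that set. CDH5 and ITGAM had a median of 0 counts over all wells, and the part of these markers was not tested.

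In the other sets BAD did not pass. With Roucongrong it stood at 906, 918 and 1095 CPM against 775 to 1851 CPM with DMSO (median 1200), all 3 wells below the median but none below the range. The log2 fold change was -0.30 with an interval of -0.74 to 0.13 (edgeR adjusted p = 0.493). With Gusuibu the wells were at 1309, 755 and 616 CPM against 595 to 1144 CPM (median 822). Well 1 was above every DMSO well while wells 2 and 3 were below the median, and the log2 fold change was -0.06 with an interval of -0.51 to 0.39 (edgeR adjusted p = 0.892). Well 1 had the lowest total of the 3 Gusuibu wells, 18177 counts.

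BCL2L1, the survival member, was thinly counted, with 2 to 54 counts in a well. In the Roucongrong set 10, 16 and 14 counts gave 324, 408 and 426 CPM, against 320 to 1421 CPM in the DMSO wells with a median of 640. All 3 treated wells lay below the median and all inside the range. The mean was 386 ± 55 CPM (SD, n = 3) with the extract and 673 ± 260 CPM (SD, n = 16) with DMSO. The log2 fold change was -0.80 ± 0.34 (SE), a fold of 0.576 with a 95% interval of 0.353 to 0.939. It was called lower, as were 2.99% of genes, with p = 0.0285 in edgeR's quasi-likelihood test and an adjusted p of 0.266, and the exact two-sided permutation test gave p = 0.0248. Without any 1 of the treated wells it was no longer called (log2 fold change -0.86 to -0.70). With DMSO wells from outside the set as controls the log2 fold change was 0.01, so no decrease was seen against them.

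With Yinyanghuo BCL2L1 stood at 237, 749 and 367 CPM, from 5, 11 and 13 counts, and the DMSO wells ranged from 81.5 to 556 CPM with a median of 349. Well 2, the shallowest, was above every DMSO well and well 1 was below the median. The log2 fold change was 0.29 with an interval of -0.56 to 1.13 (edgeR adjusted p = 0.727), and without well 2 it was -0.19. With Gusuibu the wells were at 740, 365 and 657 CPM against 91.7 to 638 CPM (median 392). Wells 1 and 3 were above every DMSO well, and the log2 fold change of 0.49 had an interval of -0.17 to 1.14 (edgeR adjusted p = 0.487). Both intervals took in a 1.5-fold increase, so a change of that size was not excluded with either herb.

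The spread between DMSO wells followed the same order in each set. The coefficient of variation of BBC3 was 11% to 18.1%, of BAD 21.4% to 32.2% and of BCL2L1 36.9% to 38.6%. Counting error alone, at the mean counts of these groups, would give 6.3% to 8.6% for BBC3, 14.1% to 20.6% for BAD and 18.8% to 31.0% for BCL2L1. These figures cover counting error only, and reads copied by PCR from the same molecule are not independent.

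Without any herb, the 3 genes were higher in the DMSO wells of the Roucongrong set than in those of the other sets. Against the Gusuibu set the log2 difference was 0.39 for BBC3, 0.47 for BAD and 0.73 for BCL2L1, with edgeR adjusted p-values of 2.46e-05, 0.00530 and 0.00168 and with 22.6% of 412 genes past the same threshold, 11.4% upward. The Yinyanghuo DMSO wells were lower than the Roucongrong ones by log2 differences of -0.36 for BBC3, -0.58 for BAD and -0.93 for BCL2L1 (edgeR adjusted p = 0.000106, 0.000721 and 0.000135), where 21.4% of genes passed, 11.4% downward. Between the Yinyanghuo and Gusuibu DMSO wells none of the 3 passed, with differences of 0.03, -0.12 and -0.21, and 5.83% of genes did. Ordered by mean CPM over the 6 groups, BBC3 and BCL2L1 were highest in the Roucongrong DMSO wells and BAD in the Yinyanghuo wells, whose own DMSO wells were lowest. Only the step from the Roucongrong DMSO wells to the next group for BBC3 exceeded the bands of 1 SD around neighbouring means.

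**Figure D2:**
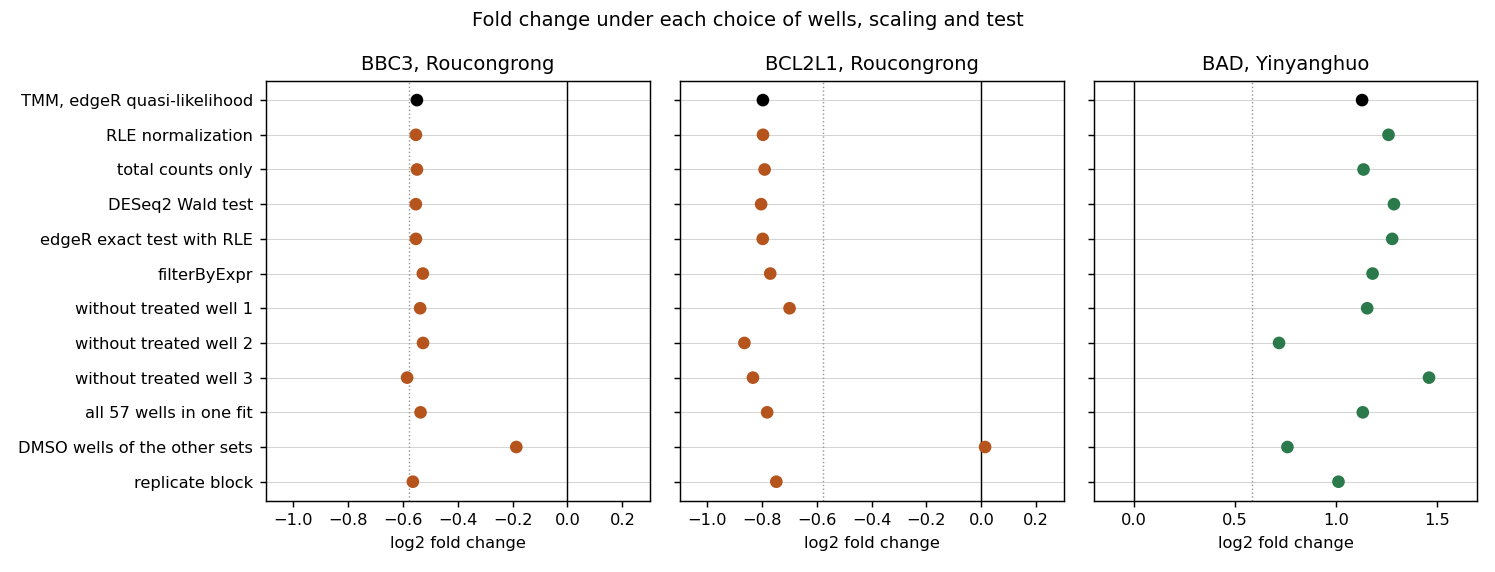
Log2 fold change of BBC3 and BCL2L1 with Roucongrong and of BAD with Yinyanghuo under each choice of wells, scaling and test, with the value used in the text in black, 0 as a solid line and the fold limits of 1.5 and 0.67 dotted. Each value moved towards 0 with DMSO wells from outside the set as controls, to -0.19 and 0.01 with Roucongrong and 0.76 with Yinyanghuo. Over all choices BAD with Yinyanghuo was between 0.72, without well 2, and 1.46.

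The difference between herbs was tested directly, as an interaction in 1 edgeR fit of the 57 wells. The BAD effect was larger with Yinyanghuo than with Roucongrong by 1.42 ± 0.35 (log2, SE; adjusted p = 0.00806) and than with Gusuibu by 1.16 ± 0.36 (adjusted p = 0.0422). The BBC3 effect was lower with Roucongrong than with Gusuibu by a log2 difference of -0.61 ± 0.19 (adjusted p = 0.0477). These thresholds were passed by 6.8%, 5.58% and 6.55% of genes, and in the direction of the member by 2.43%, 2.43% and 2.18%. The other 6 differences between herbs did not pass, the largest being BCL2L1 with Roucongrong minus Gusuibu at -1.28 with an interval of -2.25 to -0.32 (adjusted p = 0.108). Each herb was compared with the DMSO wells of its own set, and without Yinyanghuo well 2 neither BAD difference passed (1.04 and 0.78, edgeR adjusted p = 0.122 and 0.269). The BAD difference from Gusuibu was lost as well without Yinyanghuo well 1 (1.17) and without Gusuibu well 2 (1.16) or well 3 (0.93). The BBC3 difference was lost without any 1 of the 6 treated wells, with values of -0.64 to -0.58.

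The count of a pro-death gene relative to BCL2L1 in the same well does not depend on how wells are scaled, and is given as a description with no test. The log2 ratio of BAD to BCL2L1, with 0.5 added to each count, was 2.73, 1.82 and 1.44 in the Yinyanghuo wells and -0.71 to 2.72 in the DMSO wells (median 1.27). All 3 treated wells lay above the median and 1 lay just above the range, and the means differed by 0.80 on the log2 scale, or by 0.43 without well 1. With Roucongrong this ratio was 1.44, 1.15 and 1.33 against a DMSO median of 0.90, a mean difference of 0.44 with the treated wells inside the DMSO range. With Gusuibu the wells were at 0.80, 1.02 and -0.09 against a median of 0.96, and 1 well was below the range. The mean difference was -0.56, or -0.23 without well 3.

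The ratio of BBC3 to BCL2L1 differed little with Roucongrong, where both genes stood lower. It was 3.53, 3.18 and 3.33 in the treated wells against a DMSO median of 3.23, and the means differed by 0.17. With Yinyanghuo it was 4.21, 2.16 and 2.92 against 3.05 to 5.13 with DMSO, so 2 wells were below the range and 1 above the median of 3.68. With Gusuibu it was 2.68, 3.65 and 2.76, with 1 well below the DMSO range of 2.74 to 5.54. The mean differences of -0.66 and -0.50 stood beside SDs of 0.59 and 0.70 among the DMSO wells. Leaving out 1 treated well, they were -0.19 without Yinyanghuo well 2 and -1.21 without its well 1, and -0.33, -0.81 and -0.37 without Gusuibu wells 1, 2 and 3. The Roucongrong difference was 0.08 without well 1.

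**Figure D3:**
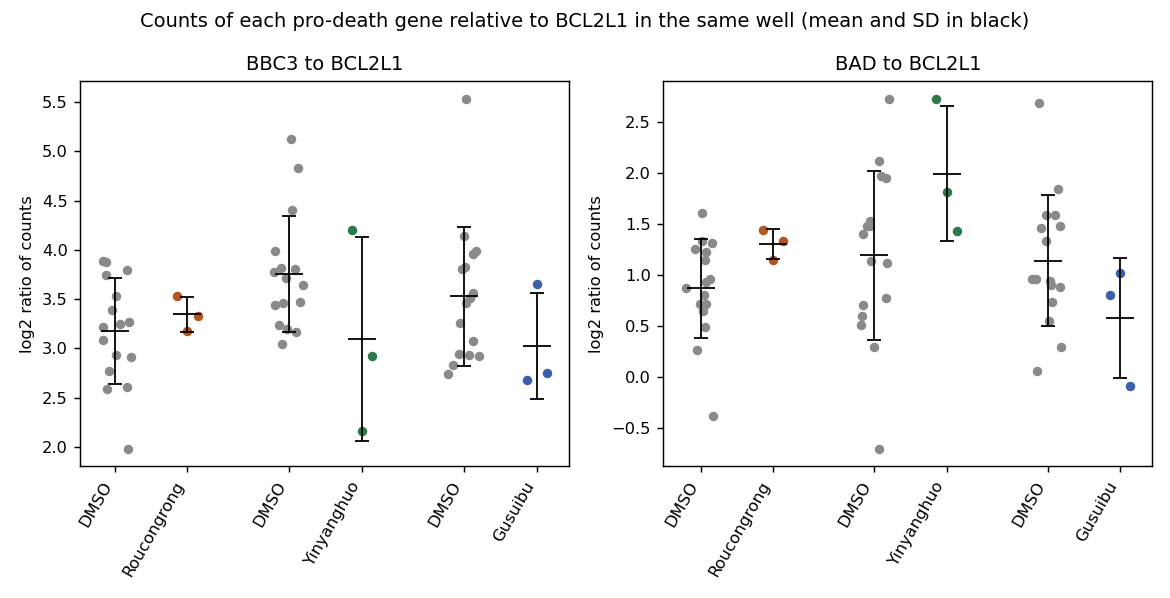
Log2 ratio of the counts of BBC3 (left) and BAD (right) to those of BCL2L1 in the same well, with DMSO wells in grey, treated wells in colour, and mean and SD in black. The Yinyanghuo wells were all above the median of their DMSO wells for BAD, and 2 of them were below the DMSO range for BBC3.

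Of 17 other BCL2 family genes listed, 5 were on the panel. These were the BH3-only genes BCL2L11 (BIM), BID and BMF and the survival genes MCL1 and BCL2. None was called with Roucongrong or Yinyanghuo, and BMF was called higher with Gusuibu, as were 7.71% of the genes tested. BMF, whose product is released from the cytoskeleton under stress, had 1, 14 and 15 counts in the Gusuibu wells against 2 to 12 with DMSO, and in CPM well 1 was below every DMSO well and 1 other above all of them. Its log2 fold change was 0.93 with an interval of 0.08 to 1.78 (edgeR p = 0.0323, adjusted p = 0.236), and it was not called without well 2 (0.65) or well 3 (0.75), nor with all wells in 1 fit (0.90).

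BID, which links death receptors to mitochondria when cleaved, stood at 960 to 1225 CPM with Yinyanghuo against 1141 to 1895 CPM with DMSO, with 2 wells below the range. Its log2 fold change was -0.53 with an adjusted p of 0.0945, and with Roucongrong it was -0.48 with an adjusted p of 0.312 (edgeR). BID was called lower without Yinyanghuo well 2 (-0.63) and without Roucongrong well 3 (-0.72), while without Roucongrong well 1 it was -0.27. With Gusuibu it was -0.03, but -0.60 and called lower with DMSO wells from outside the set. BCL2L11, a strong activator of BAX and BAK, had log2 fold changes of -0.35, 0.07 and 0.15 with Roucongrong, Yinyanghuo and Gusuibu, none called. MCL1 had 0 to 13 counts in a well. Its log2 fold changes were -0.18, 0.25 and 0.70 with Roucongrong, Yinyanghuo and Gusuibu, none called. Their intervals were wide, at -1.50 to 1.13, -1.39 to 1.90 and -0.46 to 1.87. BCL2 had 0 to 4 counts in a well with a median of 0 in every group, and no fold is given for it. The survival side of the family therefore rested mainly on BCL2L1. The median log2 fold change of listed genes averaging 5 or more counts was -0.41 for 2 genes with Roucongrong, -0.23 for 2 with Yinyanghuo and 0.15 for 3 with Gusuibu, beside -0.04, -0.08 and -0.01 over all genes tested at that count.

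**Figure D4:**
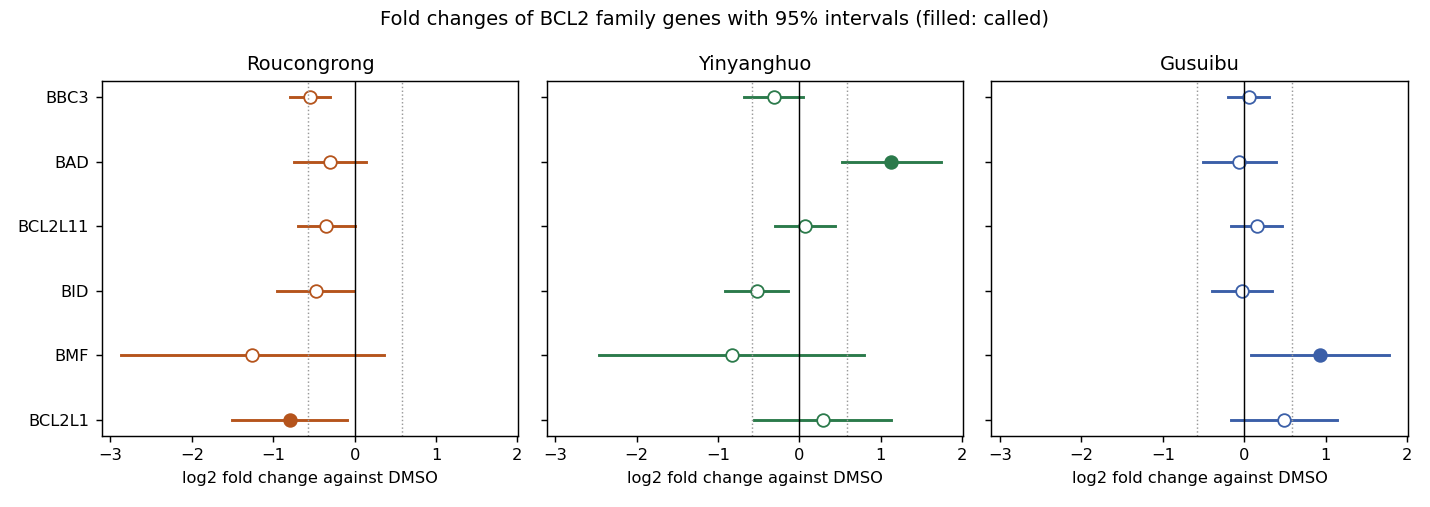
Log2 fold change of treated against DMSO wells, set by set, with 95% intervals for the BH3-only genes BBC3, BAD, BCL2L11, BID and BMF and the survival gene BCL2L1, in 1 panel per herb, with filled points for called genes and dotted lines at folds of 1.5 and 0.67. The filled points are BCL2L1 with Roucongrong, BAD with Yinyanghuo and BMF with Gusuibu, and the wide intervals of BMF go with its counts of 0 to 15 in a treated well.

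Of 21 kinases, phosphatases and 14-3-3 proteins that act on BAD, 16 were on the panel. With Yinyanghuo, where BAD was called higher, 1 of these was called higher and 1 lower, beside 15% of all genes called. None of them passed the adjusted test, which 7.5% of all genes passed. SFN, the 14-3-3 sigma protein, had 3783 to 9937 CPM against 506 to 6587 CPM with DMSO (1.20 on the log2 scale, edgeR adjusted p = 0.175), and YWHAH, the 14-3-3 eta protein, had 204 to 593 CPM against 403 to 1483 CPM (log2 fold change -0.97, adjusted p = 0.142). With Roucongrong YWHAQ, the 14-3-3 theta protein, had 4138 to 4659 CPM against 1886 to 3804 CPM with DMSO (log2 fold change 0.59, edgeR adjusted p = 0.0245). Without treated well 1, 2 or 3 the edgeR adjusted p of YWHAQ was 0.127, 0.06 or 0.123. It was 0.0567 with DMSO wells from outside the Roucongrong set and 0.494 with the replicate block. In that set 10.2% of all genes were called and 2.99% passed the adjusted test. PPP2CA, a catalytic subunit of protein phosphatase 2A, was called higher there, at 0.69 on the log2 scale (edgeR adjusted p = 0.198). Calls were lost for SFN without well 1 (1.10) or 2 (0.90), for YWHAH without well 1 (-0.90) or 2 (-0.75), for YWHAQ without well 1 (0.52), with RLE scaling (0.58), with DESeq2 (0.57), with edgeR's exact test (0.57) and with DMSO wells from outside the set (0.40), and for PPP2CA without well 3 (0.28).

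With Gusuibu PIM1, a kinase that phosphorylates BAD, had 4, 65 and 33 counts against 4 to 26 with DMSO (log2 fold change 1.40, edgeR adjusted p = 0.0262), so that well 1 did not share the increase, and it was not called without well 2 (0.57) or with DMSO wells from outside the set (0.59). YWHAE, the 14-3-3 epsilon protein, fell by 0.36 on the log2 scale with Gusuibu (edgeR adjusted p = 0.0116) without reaching the fold limit, and with DMSO wells from outside the set its log2 fold change was 0.25. The list's median, taken over genes averaging 5 or more counts, was 0.05, 0.05 and -0.20 with Roucongrong, Yinyanghuo and Gusuibu.

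Transcription regulators of the family were represented by 12 of 19 listed genes. With Yinyanghuo 11 of them could be tested, and 2 were called higher and 3 lower, where 15% of all genes were called and 7.75% called higher. The adjusted test was passed by 2 regulators, each of them lower, where 7.5% of all genes passed it. TP53BP2, whose product binds regulators of apoptosis including BCL2, fell by 0.65 with Yinyanghuo (edgeR adjusted p = 0.00879), and it was not called without well 3 (-0.48), with RLE scaling (-0.55) or with edgeR's exact test (-0.58). STAT3, which can drive BCL2L1 transcription, fell by 0.89 with Gusuibu, with 399 to 513 CPM against 595 to 1105 CPM with DMSO (edgeR adjusted p = 0.0187), beside BCL2L1 at a log2 fold change of 0.49 in the same wells.

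FOXO4, a forkhead factor, was called higher with Roucongrong at 1.06 and with Yinyanghuo at 1.36, on 1 to 11 counts in a treated well, with edgeR adjusted p-values of 0.198 and 0.187. FOS with Yinyanghuo (0, 3 and 10 counts, log2 fold change 1.94) and BCL6, a repressor, with Roucongrong (6, 4 and 11 counts, 1.09) were called higher with edgeR adjusted p-values of 0.165 and 0.312. FOXO4 was not called without Roucongrong well 3 (0.93) or Yinyanghuo well 1 (1.17) or 3 (1.11), FOS without well 2 (1.82) or 3 (1.10) and BCL6 without well 1 (1.12) or 3 (0.61). With DMSO wells from outside the set FOXO4 with Yinyanghuo (0.94) and BCL6 (0.74) were not called either. TP73 and FOXO1 were called with Gusuibu on at most 2 counts in a well, and no fold is given for them. Taken in the same way, the median of this list was -0.08 for 6 genes with Roucongrong, -0.65 for 5 with Yinyanghuo and -0.11 for 5 with Gusuibu. Over all regulators tested, whatever their counts, it was -0.02, -0.06 and -0.23 in the same order.

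Of 22 caspases, their inhibitors and death receptors, 3 were on the panel, and only TNFRSF1A was called with any herb. Over all genes tested, 10.2% were called with Roucongrong and 9.45% with Gusuibu. TNFRSF1A, the main receptor for TNF, was called higher with Roucongrong (3, 2 and 18 counts against 0 to 4) and with Gusuibu (1, 5 and 7 against 0 to 6). The Roucongrong value rested on well 3 above all, at 2.70 on the log2 scale (edgeR adjusted p = 0.0103) and 1.13 without that well, and the Gusuibu value was 1.35 (adjusted p = 0.192), not called without well 2 (1.29) or well 3 (1.10), with DESeq2 (1.45), with all wells in 1 fit (1.34) or with DMSO wells from outside the set (1.25).

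The genes whose 3 fold changes, 1 per herb, were nearest to those of each gene were found by the root mean square difference over the 215 other genes averaging 5 or more counts. For BBC3 they were FBXO32 (difference 0.07), EP300 (0.12) and THEM4 (0.12). FBXO32 had log2 fold changes of -0.51, -0.20 and 0.05 with Roucongrong, Yinyanghuo and Gusuibu, close to the -0.55, -0.32 and 0.05 of BBC3. For BAD they were NR1H2 (0.25), PPARG (0.25) and CYP2S1 (0.29), and for BCL2L1 KLF4 (0.20), MED1 (0.22) and TYK2 (0.28). The likeness rests on 3 values that share wells and depth. Under 17 other choices of wells, scaling and test FBXO32 stayed among the nearest 3 in 13, KLF4 in 13 and NR1H2 in 10. THEM4 and MED1 stayed in 12, EP300 and PPARG in 11, CYP2S1 in 8 and TYK2 in 7. The worst rank ran from 13 for MED1 to 174 for KLF4.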

How the data were processed

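RASL-seq counts of 412 genes in 57 wells of HK-2 cells were analysed, and 0 columns were left unused. The authors used the first read and filtered out reads with over 3 mismatches, and the deposited values are raw counts per gene with no normalisation. Submitters' processing notes name Bowtie2 2.2.4 and DESeq2 1.22.1. A genome build was not given in the sources used here, so no coordinates are printed. Groups were taken from the labels, and gene symbols were matched to Entrez identifiers for all 412 genes.

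Each herb was compared with the DMSO wells of its set by edgeR 4.0.16 (quasi-likelihood F test, TMM, R 4.3.3) over all genes with a nonzero total, with Benjamini-Hochberg adjustment. Calls used the study's criteria, p under 0.05 with a fold above 1.5 or below 0.67. Exact permutation tests used log2 CPM with a prior count of 2 (scipy 1.17.1). Herbs were compared by interaction contrasts, and DMSO sets by the same F test over 48 wells. Alternatives were RLE scaling, total counts only, DESeq2 1.42.0, edgeR's exact test, filterByExpr, all wells in 1 fit, DMSO wells of the other sets, a replicate block and leaving out each treated well. No fold is given where no well exceeded 3 counts, nor for BCL2, whose median count was 0 in every group. Scripts were tested on simulated data. No wells were identical, and over 369 pairs of wells of 1 group chi-squared divided by its degrees of freedom was at least 1.69. Named genes were the 3 members, measured BCL2 family genes, genes of 3 other lists that were called or passed adjustment, and the 3 nearest genes to each member. The members and lists were chosen with earlier results of these data known. Of the listed genes, 2 are not reported here.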

Additional observations from a re-analysis of the deposited data

Results flagged for a closer look

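Differences between the effects of herbs passed the adjusted threshold for BAD and BBC3, by edgeR's interaction test over the 57 wells. For BAD the effect of Yinyanghuo exceeded that of Roucongrong by 1.42 and that of Gusuibu by 1.16 on the log2 scale. Neither passed without Yinyanghuo well 2, which had BAD at 2722 CPM and the lowest total of all wells, 13581 counts. For BBC3 the effect of Roucongrong minus that of Gusuibu was -0.61, and the DMSO wells of the Roucongrong set were higher than those of the Gusuibu set by 0.39 for this gene. The part of depth and of the DMSO wells in these differences was not tested, and herb and set cannot be told apart.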

How the results depend on the processing

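For the 3 genes, 9 herb effects were each recomputed under 11 alternatives. BAD with Yinyanghuo was called in all 11 (0.72 to 1.46), with adjusted p under 0.05 in 9, the exceptions being the fit without well 2 and the replicate block. BBC3 with Roucongrong was -0.58 to -0.53 without 1 treated well, and it was called without well 3. Its adjusted p was under 0.05 in 7 of 11 alternatives, and 0.0529 without well 1, 0.0530 without well 3, 0.549 with DMSO wells from outside the set and 0.519 with the replicate block. BCL2L1 with Roucongrong ranged from -0.86 to -0.70 without 1 well.

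With DMSO wells from outside the set as controls the direction turned for BAD with Roucongrong (0.20), BCL2L1 with Roucongrong (0.014) and Yinyanghuo (-0.36), BBC3 with Gusuibu (-0.16), BID with Roucongrong (0.052), BCL2L11 with Yinyanghuo (-0.047) and YWHAE with Gusuibu (0.25). BAD with Gusuibu turned to 0.0062 with RLE scaling, to 0.018 with total counts only and to 0.015 with the replicate block, and ranged from -0.31 to 0.15 without 1 well. BID with Gusuibu turned to 0.033 with RLE, 0.048 with total counts, 0.020 with DESeq2, 0.015 with edgeR's exact test, 0.025 with filterByExpr and 0.17 with the block, ranged from -0.12 to 0.11 without 1 well, and was -0.60 and called with DMSO wells from outside the set. Leaving out 1 well gave -0.54 to -0.14 for BBC3, -0.19 to 0.58 for BCL2L1 and -0.14 to 0.21 for BCL2L11 with Yinyanghuo. The cause of these changes was not tested.

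Between herbs, leaving out 1 treated well gave 1.04 to 1.75 for BAD with Yinyanghuo minus Roucongrong, 0.78 to 1.54 for Yinyanghuo minus Gusuibu and -0.49 to 0.038 for Roucongrong minus Gusuibu. It gave -0.66 to 0.058 for BCL2L1 with Yinyanghuo minus Gusuibu and -0.64 to -0.58 for BBC3 with Roucongrong minus Gusuibu. The BAD difference between Yinyanghuo and Gusuibu was 1.10 with total counts only (adjusted p = 0.0549).

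The replicate numbers of the labels did not pair wells: the correlation of deviations between treated and DMSO wells of the same number was -0.41 to 0.38, over 0.1 in 3 of 9, and 0 of 9 wells matched their own number best. With the block, under which an effect rests on the DMSO wells numbered 1 to 3, BCL2L1 with Roucongrong was -0.75 and not called, and BCL2L1 with Gusuibu was 0.95 and called. The genes called were then 26 with Roucongrong, 37 with Yinyanghuo and 22 with Gusuibu, and those with adjusted p under 0.05 were 3, 2 and 0. Of genes named from the lists, BMF with Gusuibu (1.20), YWHAH (-1.02) and FOS (2.22) with Yinyanghuo, PPP2CA (0.25), FOXO4 (0.90), BCL6 (1.29) and TNFRSF1A (1.92) with Roucongrong and TNFRSF1A with Gusuibu (0.94) were no longer called, and BID with Roucongrong (-0.61) was called.

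Over all genes, calls with Roucongrong went from 41 to 26 by DESeq2 and 19 with filterByExpr, and were 24 to 54 without 1 well. Those with Gusuibu went from 38 to 21 by DESeq2, 20 with filterByExpr and 24 with all wells in 1 fit. Adjusted calls with Roucongrong went from 12 to 19 against the other DMSO wells and to 2 to 18 without 1 well, those with Yinyanghuo from 30 to 58 against the other DMSO wells, and those with Gusuibu from 21 to 9 against the other DMSO wells, 2 with all wells in 1 fit and 0 to 17 without 1 well.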
